A study of Mus musculus with 26 samples.

Results

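The Tbx3 locus is described here as every open-chromatin peak that overlapped the Tbx3 gene or the 50 kb on either side of it. Tbx3 (chromosome 5, 119670534 to 119684724 in GRCm38.p6, a span of 14191 bp) is a protein-coding gene, and the window ran from 119620534 to 119734724. The 26 deposited peak lists held 33 such peaks of 451563 in all, in 21 of the 26 libraries, and these merged into 8 regions where they overlapped or touched. Each first-set list was also cut to its strongest peaks at the length of the shortest list, called equal list length below. At that length, a Tbx3 start peak was found in 3 of 3 embryonic stem (ES) cell and 0 of 6 formative stem (FS) cell libraries. Read more loosely, by a peak within 1 kb of either gene end, 0.37% of protein-coding genes showed this pattern. In the lists as deposited, 16 of the 18 libraries of the first set had the Tbx3 start peak. The locus was chosen by this difference in the ranked lists, so every value below is a description and no difference at the locus was tested.

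ATAC-seq, which marks accessible DNA by letting the transposase Tn5 cut and tag it, was run on 50000 mouse cells per library. The first set held 6 cultures with 3 libraries each: ES cells kept in 2iL (ES, passage 16), FS cells kept in A3XR (FS1, passage 21, and FS2, passage 29), epiblast stem cells (EpiSCs) kept in AF (EpiSC_AF, passage 22), and EpiSCs kept in AFX (EpiSC_AFX1, passage 14, and EpiSC_AFX2, passage 16). A second set, titled Rd2, had 2 libraries of ES cells in 2iL (Rd2_ES, passage 33), 2 of EpiSCs in AFX (Rd2_AFX, passage 16) and 4 of epiblast-like cells (Rd2_EpiLC; EpiLCs), which ES cells had formed within 2 days in AF with KSR and from which the fraction with little GFP was sorted. The Rd2 titles carry the letters WT, the source label of Rd2_ES carries the letters GFP, and the labels used here do not say what the GFP reports. They give no strain and no statement of whether libraries of a culture came from separate dishes. The spread between libraries may therefore be technical.

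Tbx3 encodes a T-box transcription factor, a family that binds DNA through the T-box domain first known from Brachyury, the product of T. In mouse ES cells Tbx3 is known as a member of the naive pluripotency network, acting beside LIF signalling, Klf4 and Nanog, and it also has roles in extraembryonic endoderm and in limb, heart and mammary development. Formative cells are placed between the naive state of ES cells and the primed state of EpiSCs. In ATAC-seq an open gene start is a sign of accessible DNA there and not a measure of transcription.

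Lists of the first set held up to 31263 peaks and those of the Rd2 set between 471 and 26045, and the depth behind them was unknown because the lists give no read counts. The ES lists were the shortest of the first set, at 10961 peaks or fewer, against 11796 to 31263 in the FS lists. Libraries of 1 group had at most 0.0746% of peaks in common by exact start and end. The labelled cell types were set against marker genes at equal list length, by a peak no further than 1 kb from either end of the gene. Of all protein-coding genes, 31.3% had such a peak in at least 1 ES library, 41% in FS, 38.4% in EpiSC_AFX and 33.5% in EpiSC_AF, and 51.1% had none in any first-set library. FS and EpiSC_AFX had 6 libraries each and ES and EpiSC_AF 3, so these shares and the marker counts below cannot be compared directly between types. The shares with a peak in every library of the type were 11.9% in ES, 10.4% in FS, 15.2% in EpiSC_AFX and 19.1% in EpiSC_AF. Of 7 formative markers, 1 had one in ES, 4 in FS, 5 in EpiSC_AFX and 5 in EpiSC_AF. In every library of the type, 0 of the 7 had one in ES, 0 in FS, 3 in EpiSC_AFX and 3 in EpiSC_AF. Of 6 primed markers the counts with one in at least 1 library were 1, 3, 2 and 2 in the same order. FS thus had more of them by this count than either EpiSC type. No primed marker had such a peak in every library of any type, so these counts rest on part of the libraries. Of 10 naive markers, 5 had one in ES and 5 in each of the other types, but not the same 5: Klf2, Klf4, Klf5 and Nanog had one in every type, Zfp42 in ES only and Tfcp2l1 in every type but ES. Esrrb, Nr5a2, Prdm14 and Dppa3, also naive markers, had none in any first-set library. The 5 extraembryonic endoderm and 4 trophoblast markers had none there either.

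Besides Tbx3, RefSeq annotates 4 long noncoding RNA genes in the window: Tbx3os1 (119611253 to 119671508), Gm16063 (119625942 to 119634462), Gm16064 (119646137 to 119659262) and Tbx3os2 (119685088 to 119691218). Tbx3os1 and Tbx3os2 are opposite-strand genes on the minus strand, and the start of Tbx3os1 lies inside the Tbx3 span, so an open site between the starts of both genes cannot be assigned to one of them. The RefSeq promoter sequences of these 2 genes in GRCm38.p6, from 250 bases before to 50 bases after the start, are shown because one had a peak on it and the other lies next to the Tbx3 start peaks. The promoter sequences of Tbx3 itself and of Gm16063 were not used here, although some start peaks covered the first base of Tbx3. They are written 5′ to 3′ on the minus strand, and capitals mark the 150 bases under a peak. Tbx3os2 spans chr5:119691169-119691468 and Tbx3os1 spans chr5:119671459-119671758.
Tbx3os2: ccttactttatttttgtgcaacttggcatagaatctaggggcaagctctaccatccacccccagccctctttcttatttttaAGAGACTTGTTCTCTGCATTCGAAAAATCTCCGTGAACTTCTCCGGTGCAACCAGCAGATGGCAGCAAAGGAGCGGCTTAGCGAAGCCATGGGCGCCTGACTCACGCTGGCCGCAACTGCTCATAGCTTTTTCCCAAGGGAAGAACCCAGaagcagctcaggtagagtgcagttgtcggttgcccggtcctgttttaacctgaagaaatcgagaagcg
Tbx3os1: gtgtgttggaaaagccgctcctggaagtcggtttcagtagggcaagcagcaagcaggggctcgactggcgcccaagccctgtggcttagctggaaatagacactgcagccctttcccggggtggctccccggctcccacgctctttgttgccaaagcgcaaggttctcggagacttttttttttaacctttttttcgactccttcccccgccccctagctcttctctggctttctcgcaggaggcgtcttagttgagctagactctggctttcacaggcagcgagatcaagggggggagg
The capitals in the Tbx3os2 promoter are bases 83 to 232, counted from 1 at the 5′ end, and stem from 1 peak in 1 library, EpiSC_AFX1 replicate 3. The Tbx3os1 promoter carried no peak in any of the 26 lists and began 346 bp beyond the last base of the Tbx3 start region. Its GC content was 57.3% with 14 CpG sites and that of Tbx3os2 50.7% with 12, against medians of 52.7% and 7 over 32851 RefSeq promoters. For comparison, 36.4% of those promoters had a peak in the same library and 46.8% had one in at least 1 of the 26 lists. Both strands were searched for 4 motifs. TTCNNNGAA (STAT factors, in 8.3% of all promoters), AGGTGTGA (T-box factors, 1.28%) and ATGCAAAT (octamer, 1.74%) were not found in either sequence. GGGNGGGG (KLF and SP factors, 33.24% of all promoters) matched Tbx3os1 once, on the opposite strand from base 206, and did not match Tbx3os2.

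The start region was the most widely shared site of the locus. It spanned 119670293 to 119671112 after merging, 820 bp, over the first bases of Tbx3. It also lay within Tbx3os1, near the start of that minus-strand gene but without reaching it. It had a peak in all 3 ES, all 3 FS1, 1 of 3 FS2, all 3 EpiSC_AF, all 3 EpiSC_AFX1 and all 3 EpiSC_AFX2 lists as deposited. The libraries without it in the first set were FS2 replicates 1 and 2, whose lists of 14147 and 11796 peaks were longer than any ES list. A peak near a gene end in at least 16 of the 18 first-set libraries was present at 22.9% of protein-coding genes, so wide sharing of this kind was common. The gene table holds whole spans, so exons were not separated from introns.

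**Figure D1:**
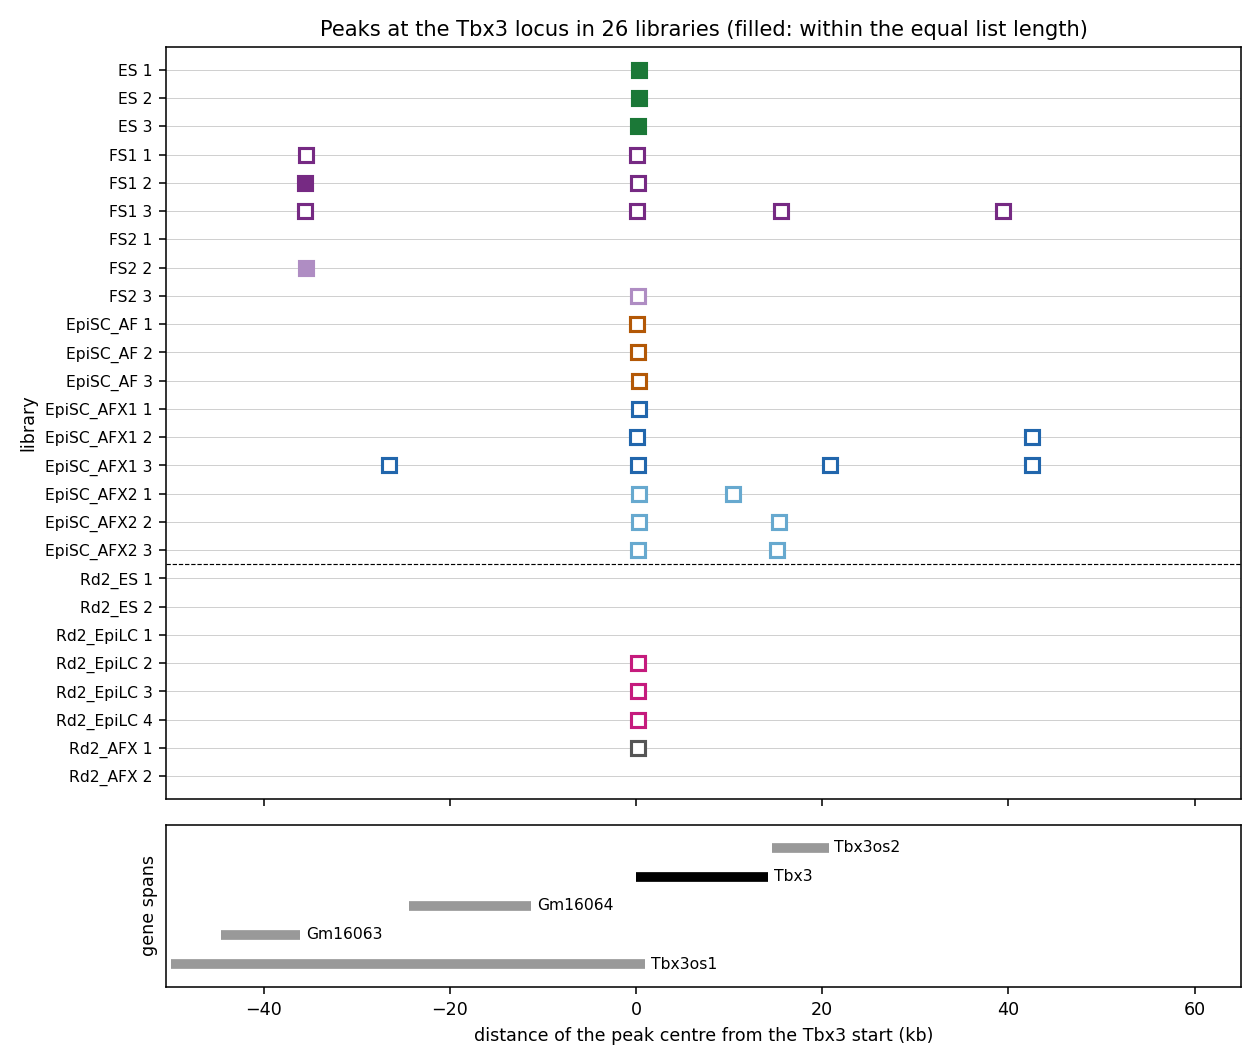
Peaks in the window around Tbx3 in each of the 26 libraries, by distance of the peak centre from the Tbx3 start in kb; each square is 1 peak, filled where it lies within the equal list length of a first-set list and open otherwise, and the dashed line separates the first set from the Rd2 set. Gene spans are drawn underneath; the 5 filled squares are the 3 ES peaks at the start and 2 FS peaks at −35.5 kb.

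By rank number, though not by percentile, the start peak stood further forward in ES than in the other libraries, whose lists were longer. Peaks were ranked within their own list by the authors' −log10 p, with 1 as the strongest. The start peak had rank 2815 of 10961 in ES replicate 1, 1562 in replicate 2, the shortest list of the first set, and 5482 of 9705 in replicate 3. It had rank 11011 of 26448, 10883 of 23883 and 14136 of 31263 in FS1 replicates 1, 2 and 3, and 8673 of 12960 in FS2 replicate 3. Every ES rank was thus ahead of every FS rank, and the ES peaks were not the strongest of their lists.

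The EpiSC lists placed it further back than the ES lists did, by rank number. The ranks were 14240, 11641 and 19635 in EpiSC_AF replicates 1, 2 and 3. They were 16226, 9914 and 11904 in EpiSC_AFX1 and 16179, 23269 and 19555 in EpiSC_AFX2. FS and EpiSC ranks overlapped, and no first-set library other than ES had the peak within the equal list length.

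The equal list length lay inside a gap. The last ES rank was 5482 and the first rank of any other first-set library was 8673, so any limit from 5482 to 8672 peaks gave 3 of 3 ES libraries and none of the other 15. That stricter pattern, read within 1 kb of either gene end, was shown by 0.201% of protein-coding genes at equal list length. The values just inside and just outside were ES replicate 3 and FS2 replicate 3. With the first 10000 peaks of each list, 3 ES, 1 FS, 1 EpiSC_AFX and 0 EpiSC_AF libraries had the peak, and with 20000 the numbers were 3, 4, 5 and 3. With 4000 peaks, 2 of 3 ES libraries and none of the others had it.

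**Figure D2:**
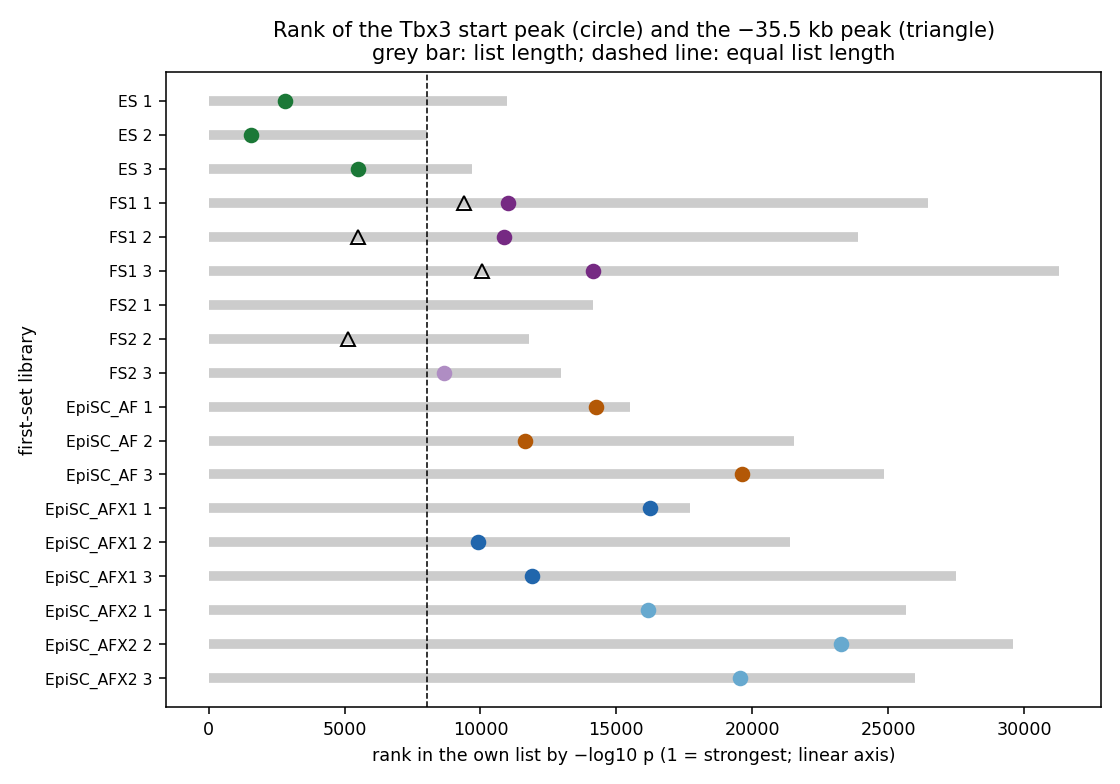
Rank of the Tbx3 start peak (circle) and of the −35.5 kb peak (triangle) by −log10 p within each first-set list, on a linear axis; grey bars give the list length and the dashed line the equal list length. The 3 ES circles lie left of the line and all other circles right of it, while 2 of the 4 triangles lie left of it.

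Within the full lists the start peak had percentile ranks of 74.3, 80.6 and 43.5 in ES, where 100 would be the strongest peak. They were 58.4, 54.4 and 54.8 in FS1 and 33.08 in FS2 replicate 3. In EpiSC_AF they were 8.16, 46.0 and 20.9, in EpiSC_AFX1 8.34, 53.7 and 56.7, and in EpiSC_AFX2 36.9, 21.3 and 24.7. ES replicate 3 lay below all 3 FS1 libraries and below EpiSC_AF replicate 2 and EpiSC_AFX1 replicates 2 and 3 on this scale, so the order that held for rank numbers did not hold for percentiles. Percentiles of lists that differ in length do not show a change in signal. Over all 33 locus peaks the authors' −log10 q ran from 1.49 to 6.29 and the fold enrichment from 3.43 to 5.94, while the highest −log10 q of a list lay between 53.8 and 173.0. The highest percentile ranks of the locus were the 80.6 and 74.3 of ES and 77.0 at −35.5 kb in FS1 replicate 2.

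The start peaks differed in extent between libraries of the same group. Their widths were 218, 318 and 418 bp in ES, 286, 494 and 717 bp in FS1 and 498 bp in FS2 replicate 3. They were 150, 184 and 514 bp in EpiSC_AF, 396, 250 and 462 bp in EpiSC_AFX1 and 462, 605 and 449 bp in EpiSC_AFX2. The ranges of ES, FS1, EpiSC_AF and EpiSC_AFX1 overlapped, and the narrowest, in EpiSC_AF replicate 1, was at the shortest width that any first-set list held.

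All 20 start peaks of both sets shared 23 bp, from 119670718 to 119670740, which is 184 to 206 bp inside Tbx3. The peak centres lay 292.5, 333.5 and 223.5 bp inside the gene in ES and 139.5, 215.5 and 117 bp inside it in FS1, so each ES centre was deeper in the gene than each FS1 centre. The FS2 replicate 3 centre, at 250.5 bp, lay among the ES values. Centres ran from 131.5 to 258.5 bp in EpiSC_AF, from 130.5 to 285.5 bp in EpiSC_AFX1 and from 231 to 287.5 bp in EpiSC_AFX2, and the range of each of these groups overlapped that of ES. Of the 20 peaks, 5 began before the first base of Tbx3 (all 3 of FS1, EpiSC_AFX1 replicate 3 and EpiSC_AFX2 replicate 2), and 15, including every ES peak, began inside the gene.

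**Figure D3:**
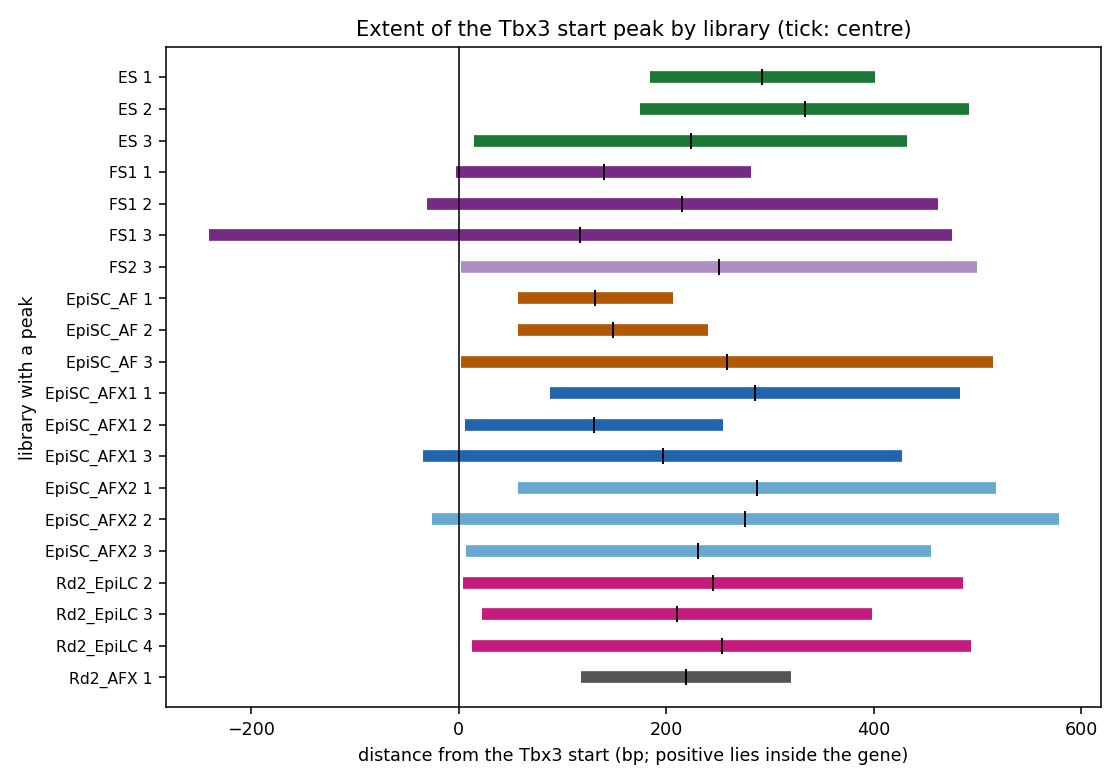
Extent of the start peak in the 20 libraries that had one, in bp from the Tbx3 start, with positive values inside the gene; each bar is 1 peak and the tick its centre. All bars share 184 to 206 bp, and 5 bars begin to the left of the start.

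The second site was seen in FS libraries. The −35.5 kb region (119634862 to 119635134, 273 bp) lies within the Tbx3os1 span, 400 bp beyond the annotated end of Gm16063. As deposited, 3 of 3 FS1 lists and 1 of 3 FS2 lists had a peak there, and none of the 12 ES and EpiSC lists of the first set and none of the 8 Rd2 lists did. The 2 Rd2_ES lists held 471 and 2576 peaks, too few to reach any of the ranks given below, so they do not tell whether it was open. This site was singled out after its values were seen. A peak in all FS1 libraries and in none of those 12 was found at 0.369% of 67172 merged regions of the first set, and at 0.103% when at least 1 FS2 library was also required.

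Its ranks were 9391, 5491 and 10048 in FS1 replicates 1, 2 and 3 and 5120 in FS2 replicate 2, with percentile ranks of 64.5, 77.0, 67.9 and 56.6. In the 3 FS1 lists that had both peaks, the −35.5 kb peak outranked the start peak in 3 of 3. FS2 replicate 2 had this peak without the start peak, FS2 replicate 3 had the start peak without this one, and FS2 replicate 1 had no peak in the window at all. At equal list length, FS1 replicate 2 and FS2 replicate 2 kept it, 2 of 6 FS libraries. The 4 peaks were 203, 255, 222 and 169 bp wide in the same order and shared 131 bp, from 119634966 to 119635096. These peaks were narrow beside most start peaks, and this site held the highest −log10 q of the locus, 6.29 in FS1 replicate 2.

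The other 6 regions rested on 1 to 3 peaks each, and none of them was within the equal list length. The +15.5 kb region (119685598 to 119686436), within Tbx3os2 and 874 bp beyond the far end of Tbx3, had peaks in FS1 replicate 3 and in EpiSC_AFX2 replicates 2 and 3. The +42.5 kb region (119712941 to 119713192) lies outside all annotated gene spans and had peaks in EpiSC_AFX1 replicates 2 and 3. The remaining 4 regions had a peak in 1 library each: −26.6 kb within Tbx3os1 and +20.8 kb at the start of Tbx3os2 in EpiSC_AFX1 replicate 3, +10.4 kb within Tbx3 in EpiSC_AFX2 replicate 1, and +39.4 kb outside gene spans in FS1 replicate 3. These single peaks were 150 to 168 bp wide. FS1 replicate 3 and EpiSC_AFX1 replicate 3, which held 3 of these 4, had the longest list of their culture, and the part of list length in these peaks was not tested.

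Counted as peaks per library in the whole window at equal list length, ES had 1 in each of 3 libraries and FS had 0, 1 and 0 in FS1 and 0, 1 and 0 in FS2, a mean of 0.333 ± 0.516 (SD, n = 6). All 9 EpiSC libraries had 0. The median over 21887 protein-coding genes, each with 50 kb on both sides, was 0.667 peaks per library in ES, 0.833 in FS, 0.833 in EpiSC_AFX and 1 in EpiSC_AF. A window with no peak in any library was found at 28.1% of genes in EpiSC_AFX and at 32.9% in EpiSC_AF, so an empty window was not unusual.

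In the lists as deposited, FS1 (mean 2.67) and EpiSC_AFX had more peaks per library than ES, EpiSC_AF had as many and FS2 (mean 0.667) had fewer. ES had 1 peak in each library, FS1 had 2, 2 and 4, FS2 had 0, 1 and 1, EpiSC_AF had 1 in each, EpiSC_AFX1 had 1, 2 and 4 and EpiSC_AFX2 had 2 in each. The means were 1.67 ± 1.37 (SD, n = 6) for FS and 2.17 ± 0.983 (SD, n = 6) for EpiSC_AFX, against medians over genes of 1 in ES, 2 in FS, 2.5 in EpiSC_AFX and 2 in EpiSC_AF. Tbx3 thus had as many peaks as the median gene in ES and fewer in each of the other 3 types. These lists differ in length, which was not accounted for here.

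In the Rd2 set the start peak was the single site of the locus. It was present in 3 of 4 EpiLC lists, with rank 8872 of 23608 in replicate 2, 5497 of 7469 in replicate 3 and 18118 of 26045 in replicate 4, and absent from replicate 1 with 10563 peaks. Rd2_AFX had it in replicate 1, with rank 6590 of 11252, and not in replicate 2. The ranks in EpiLC replicate 3 and Rd2_AFX replicate 1 would lie within the equal list length, which was applied to the first set only. Its widths were 483, 377 and 482 bp in the EpiLC libraries and 203 bp in Rd2_AFX. The 2 Rd2_ES lists held 471 and 2576 peaks and none at the locus. Lists that short would also have missed the start peak at the ranks it had in ES replicates 1 and 3, so they do not tell whether the site was open.

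The neighbouring protein-coding genes behaved differently from Tbx3. Tbx5, a T-box gene of heart and limb 112 kb beyond Tbx3, had no peak within 1 kb of either end in any of the 26 lists. As deposited, 7629 of 21887 protein-coding genes had none in any first-set list, so this was not unusual. Med13l, a Mediator subunit gene 905 kb away on the other side, had such a peak at equal list length in 1 of 3 ES, 3 of 3 FS1, 1 of 3 FS2 and 9 of 9 EpiSC libraries. For comparison, 15.2% of protein-coding genes had one in every EpiSC_AFX and 19.1% in every EpiSC_AF library at that length. Gm16064, between the −26.6 kb region and the start, had none in any list.

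Across the 17 genes of the T-box family, Tbx3 was the single member with a gene-end peak in every ES and no FS library at equal list length, and no member had the reverse, which 0.882% of protein-coding genes showed. For 10 of the 17 genes no first-set library had such a peak at that length, which held for 51.1% of all protein-coding genes. Eomes, a mesendoderm and trophoblast regulator, had one in 1 of 3 ES, 2 of 6 FS, 4 of 6 EpiSC_AFX and 2 of 3 EpiSC_AF libraries. T, the gene of Brachyury, had one in 1 EpiSC_AF library, and Tbx2, the closest relative of Tbx3, in 2 of 6 EpiSC_AFX libraries. Tbx10 had one in 4 of 6 FS libraries and in none of the other 12. It was named after its values were seen.

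In the lists as deposited, T-box gene ends carried peaks in more libraries. Tbx2 then had one in 0 of 3 ES, 3 of 6 FS, 6 of 6 EpiSC_AFX and 1 of 3 EpiSC_AF libraries, and T in 0, 1, 3 and 2. Eomes had one in 2 of 3 ES libraries and in all 15 others. Tbx10 had one in 0 of 3 ES libraries and in all 15 others, the single T-box gene with 0 of 3 ES and 6 of 6 FS, a pattern of 3.41% of protein-coding genes. Tbx3 was the single one of the 17 T-box genes with a peak in all 3 ES libraries, which 13.6% of all protein-coding genes had.

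**Figure D4:**
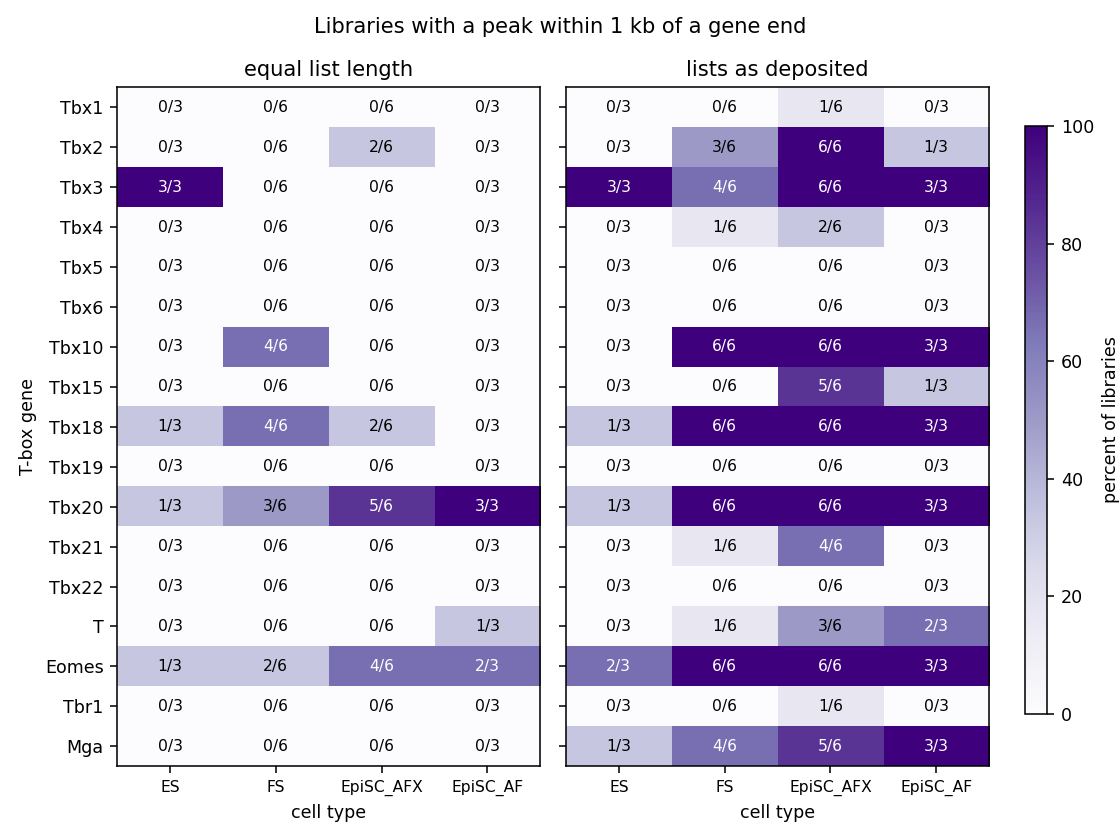
First-set libraries, out of those of each cell type, that had a peak within 1 kb of either end of each of the 17 T-box genes, at equal list length (left) and in the lists as deposited (right); the shade gives the percent of libraries. Tbx3 has 3 of 3 ES and 0 elsewhere on the left, and 3, 4, 6 and 3 libraries on the right.

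Among 22 genes of LIF signalling and the naive network, 1 shared the pattern of Tbx3 at equal list length: Zfp42, the gene of the naive marker Rex1, had a gene-end peak in 3 of 3 ES and in 0 of 15 other libraries. As deposited it still had one in every ES and no FS library, which 0.064% of protein-coding genes showed. Tbx3 then had one in 4 of 6 FS libraries. Zfp42 also had one as deposited in 1 of 3 EpiSC_AF and 2 of 4 Rd2_EpiLC lists. No gene of the list had the reverse pattern. Stat3, the transcription factor downstream of LIF, Jak1, its kinase, and Klf5 had one in all 18 libraries at equal list length. These genes were named after their values were seen. At that length 10.4% of protein-coding genes had one in every FS library, and the share for all 18 libraries was not computed. Klf4, placed beside Tbx3 in the LIF response, had one in 2 of 3 ES, 2 of 6 FS, 4 of 6 EpiSC_AFX and 2 of 3 EpiSC_AF libraries, and Nanog in 2, 1, 6 and 1. The median number of libraries with such a peak over this list was 0.5 of 3 in ES, 1 of 6 in FS, 3.5 of 6 in EpiSC_AFX and 1 of 3 in EpiSC_AF. Over all protein-coding genes it was 0 in each type.

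The genes most like Tbx3 were sought by the percentile rank of the best gene-end peak in each of the 18 first-set libraries at equal list length, with 0 for no peak. The smallest mean absolute differences, in percentile points over 18 libraries, were 0.957 for the predicted gene Gm9495, 1.68 for Cyp4f13, a cytochrome P450 gene, 1.91 for Sox21, a SOX transcription factor gene, 2.21 for Lrfn5, a synaptic adhesion gene, and 2.24 for Fbxo15, an F-box gene known for its use as an ES cell reporter. A gene with no peak at all stood at 9.86. None of these 5 had a gene-end peak in any of the 15 libraries other than ES, which the choice by likeness favoured because Tbx3 had none there. Lrfn5 lacked one in ES replicate 3 at this length. In the lists as deposited Fbxo15 had one in 3 of 3 ES, 3 of 6 FS, 5 of 6 EpiSC_AFX and 1 of 3 EpiSC_AF libraries, and Gm9495 in 3, 6, 4 and 3. For these genes too, the absence outside ES at equal list length was not an absence from the lists.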

How the data were processed

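The deposited data were 26 broadPeak lists, 1 per library. Per the submitters' processing notes, Trim Galore, Bowtie, Picard and MACS2 were used and the build was mm10, with no versions or settings given. A deposited peak has 4 values in the broadPeak layout: the authors' score, which was not used, their fold enrichment as a ratio, and their −log10 p and −log10 q. These were read within a list only. Peaks were at least 150 bp long in the first set (18 lists) and at least 110 bp in the Rd2 set (8 lists), so the sets were described apart.

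Libraries were grouped by source label; FS joined FS1 and FS2, and EpiSC_AFX joined EpiSC_AFX1 and EpiSC_AFX2. Peaks were ranked by −log10 p, and first-set lists were cut to the length of the shortest, ES replicate 2, for the equal list length. An overlap of 1 bp counted. Gene spans came from RefSeq GRCm38.p6, which gives no strand, so other genes were read within 1 kb of either end, and the end of Tbx3 with the lower coordinate was taken as its start. Named genes were Tbx3, its neighbours, Tbx2, Tbx5, T, Eomes, listed genes that parted ES from FS completely, and the 5 most like Tbx3. Tbx10, Stat3, Jak1 and the naive markers given by name were added after their values were seen. Members and lists were chosen with earlier results of these data known. Depth was unknown, so no counting interval was given. No test was made. Python 3.11.15, pandas 2.3.3 and matplotlib 3.10.9 were used, and the steps over all genes were checked on simulated data. Alternatives covered list length, ranking, the −log10 q minimum, window and distance.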

Additional observations from a re-analysis of the deposited data

Results flagged for a closer look

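Libraries of groups with 4 to 10 values were compared by the gap of the outermost value to its neighbour over the whole range, for 13 sets of values, and 3 stood apart. The limits used are passed by chance in about 1 in 20 groups of independent, continuous, normally spread values. That rate does not hold here, because locus peak counts are small whole numbers with ties and several sets describe the same peaks. EpiSC_AFX1 replicate 3 had 4 locus peaks as deposited, where the other 5 EpiSC_AFX libraries had 1 or 2. Rd2_EpiLC replicate 1 had 0 locus peaks, where the other 3 EpiLC libraries had 1 each. Among the 4 FS libraries with a start peak, FS2 replicate 3 had the lowest percentile rank, 33.08, and is the only FS2 library of the 4. No cause was tested for any of these.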

How the results depend on the processing

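Ranking by fold enrichment, a flank of 100 kb and a 50% overlap changed no mean number of locus peaks at equal list length, and ranking by fold enrichment or a distance of 5 kb changed no share of libraries with a start peak. List length did. In the lists as deposited the mean was 1.67 in FS, 2.17 in EpiSC_AFX and 1 in EpiSC_AF, and the share with a start peak was 66.7%, 100% and 100%. With 4000 peaks per list ES fell to 0.667 locus peaks and 66.7% of libraries. With 10000 peaks, a limit added after seeing the data, FS and EpiSC_AFX stood at 16.7% each. With a −log10 q of at least 5, ES had 0 locus peaks and 0% of its libraries had a start peak, while FS again had a mean of 0.333 locus peaks, from the −35.5 kb peaks of FS1 replicates 2 and 3 in place of those of FS1 replicate 2 and FS2 replicate 2. A flank of 20 kb, which leaves out that region, gave 0 in FS. Leaving out 1 library gave 0.2 to 0.4 locus peaks in FS, the lowest without FS1 replicate 2 or FS2 replicate 2. Rd2_EpiLC moved from 0.75 to 0.25 at 7469 peaks per list and ranged from 0.667 to 1 without 1 library, and Rd2_AFX ranged from 0 to 1. The 81 genes with 3 of 3 ES and 0 of 6 FS libraries became 14 in the lists as deposited and 90 to 156 without 1 library, the highest without ES replicate 1 (156), with 138 without replicate 2 and 146 without replicate 3, where fewer ES libraries must hold a peak. Read at starts with a known strand instead of gene ends, 72 of 17492 genes showed the pattern at equal list length. No paired analysis was possible because no result came from a test. The unknown depth of each library limits every statement on a missing peak.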
